A study of Homo sapiens with 4 samples.

Results

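PTBP1, its paralogs PTBP2 and PTBP3, and the co-regulators RAVER1 and MATR3 were followed in UM-UC-3, a cell line established from a human bladder carcinoma. RNA was taken 48 h after siRNA had been delivered at 75 nM. These 5 genes were found by their symbols among 24039 genes listed in all 4 tables, and each was listed in every table. There was 1 RNA-seq library per condition: cells given a negative control siRNA, a mixture of 2 siRNAs against PTBP1 (si-PTBP1), 2 against hnRNPK (si-hnRNPK), or 2 against the long non-coding RNA lncRNA-LBCS (si-lncRNA-LBCS). In the reads, the gene matched by the last siRNAs was low and not lowered against control beyond counting error, so that library is named by its label. The sample label gives a relative qPCR value of 0.13 for this culture, with 1 for control. All 4 cultures were transfected, and no untransfected culture was analysed here. With 1 culture each, the spread between cultures is unknown, and no p-value is given. The values are CPM, a gene's reads scaled to a common library size. A gene was called changed when its log2(CPM + 1) differed from control by at least 1, among genes at 1 CPM or more in either library. This scale understates the change of low genes. The intervals given are 95% exact intervals of the reads and cover counting error only.

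PTBP1, or polypyrimidine tract binding protein 1, binds pyrimidine-rich stretches of pre-mRNA and mostly represses the splicing of nearby exons. PTBP2 is its neuronal paralog, and in non-neuronal cells PTBP1 is known to cause skipping of a short PTBP2 exon, which shifts the reading frame and sends the transcript to nonsense-mediated decay. PTBP3, first called ROD1, is a paralog best known from blood cells. RAVER1 is a corepressor that docks on PTBP1, and MATR3 (matrin 3) is a nuclear matrix protein that binds PTBP1 through a similar short motif.

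The siRNAs against PTBP1 are shown because they define which family member the knockdown could pair with. They are the sense strands as listed in the sample labels, with the 7 bases that lie opposite the seed of the guide strand (guide bases 2 to 8) in capitals.
PTBP1 siRNA 1: gccucaacgucAAGUACAatt
PTBP1 siRNA 2: cccucauugacCUGCACAatt
The 19 paired bases of each matched PTBP1 and no other gene of the GENCODE release 29 transcripts without a mismatch. On GRCh38, siRNA 1 matched chr19:805080-805098 in exon 8 and siRNA 2 matched chr19:810750-810768 in exon 14 of a PTBP1 transcript with 14 exons. Each site is held by 6 of the 12 protein-coding PTBP1 transcripts, and in those 6 it lies in the coding sequence. The aligned coding stretches of the paralogs follow, with each base that differs from PTBP1 in capitals.
Site 1, PTBP1 (chr19:805080-805098, plus strand): gcctcaacgtcaagtacaa
Site 1, PTBP2 (chr1:96785126-96785144, plus strand): ATTtGaaTgtAaaAtacaa
Site 1, PTBP3 (chr9:112251018-112251036, minus strand): gcctTaaTgtGaaAtaTaa
Site 2, PTBP1 (chr19:810750-810768, plus strand): ccctcattgacctgcacaa
Site 2, PTBP2 (chr1:96813329-96813347, plus strand): ccTtGattgaTctTcaTaa
Site 2, PTBP3 (chr9:112223909-112223927, minus strand): ccctcattgaGctTcaTaa
PTBP2 differed from PTBP1 at 7 bases of site 1 and 5 bases of site 2. PTBP3 differed at 5 bases of site 1 and at 3 bases of site 2, the closest match of either siRNA to another member. RAVER1 and MATR3 held no stretch with fewer than 6 mismatches to either siRNA.

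The 34-base exon of the paralogs is shown because its use decides whether a PTBP transcript keeps its reading frame, while the CPM counted reads of a whole gene. Capitals mark bases that differ from PTBP1.
PTBP1 exon 10 (chr19:807869-807902, plus strand): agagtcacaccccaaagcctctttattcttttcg
PTBP2 exon 10 (chr1:96806419-96806452, plus strand): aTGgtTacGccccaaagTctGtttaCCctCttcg
PTBP3 exon 11 (chr9:112231380-112231413, minus strand): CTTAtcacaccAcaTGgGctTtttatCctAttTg
The exon was identical to PTBP1 at 25 of 34 bases in PTBP2 and at 22 in PTBP3. In the annotation 6 PTBP1 transcripts contain it and 2 skip it, both of them labelled as targets of nonsense-mediated decay. For PTBP2, 6 transcripts contain it and 3, annotated as non-coding, skip it. For PTBP3, 5 contain it and 0 skip it. The deposited values do not separate transcripts with the exon from those without it.

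The paralogs share no long stretch of identical bases. The coding sequences of the principal transcripts were 66.9% identical between PTBP1 and PTBP2, 70.6% between PTBP1 and PTBP3 and 70.7% between PTBP2 and PTBP3, over the aligned bases. The longest run of identical bases between any of their transcripts was 14, 17 and 21 bases, against reads of 100 bases. PTBP1P, a processed pseudogene of PTBP1, was at 0.110 CPM or less in each library. Its closest stretch had 1 mismatch to PTBP1 siRNA 1 and 3 mismatches to PTBP1 siRNA 2.

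PTBP1 fell in the si-PTBP1 library. It was at 280.0 CPM with control siRNA, 89.7 CPM with si-PTBP1, 253.3 CPM with si-hnRNPK and 326.6 CPM in the si-lncRNA-LBCS-labelled library. The si-PTBP1 value was the lowest, and the next lowest, that of si-hnRNPK, was 2.82 times as high (2.73 to 2.92). The difference of log2(CPM + 1) between si-PTBP1 and control was -1.63 (interval -1.68 to -1.59), from 5031 and 17188 reads. PTBP1 was thus at 32.0% of its control level, which was the 16th largest fall among 13855 genes. The sample label gives a relative qPCR value of 0.1 for this culture, with 1 for control. The difference was -0.14 with si-hnRNPK and 0.22 in the si-lncRNA-LBCS-labelled library, so that neither reached the threshold.

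PTBP2 rose in the si-PTBP1 library. It was at 141.2 CPM with control siRNA, 443.0 CPM with si-PTBP1, 68.2 CPM with si-hnRNPK and 77.5 CPM in the si-lncRNA-LBCS-labelled library. The si-PTBP1 library was the highest and si-hnRNPK the lowest, a range of 6.50-fold, which was the widest of the 5 genes. Against control the difference of log2(CPM + 1) in si-PTBP1 was 1.64 (1.61 to 1.68), or 3.14 times the control level, from 24841 and 8664 reads. It was the 50th largest rise among 13855 genes.

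With si-hnRNPK, PTBP2 fell to 48.3% of its control level, a difference of log2(CPM + 1) of -1.04. This call is at the edge of the threshold: its counting interval ran from -1.09 to -0.98, and median-of-ratios scaling, which sets the typical gene equal between libraries, gave -0.93. In the si-lncRNA-LBCS-labelled library the difference was -0.86 (-0.91 to -0.81), which did not reach the threshold, although PTBP2 was at 54.9% of control. All comparisons share the control library. PTBP2 was 1.14 times higher in the si-lncRNA-LBCS-labelled library than with si-hnRNPK (1.09 to 1.18), the smallest step between its neighbouring levels.

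PTBP3 was not called in any comparison. It was at 160.3 CPM with control siRNA, 185.7 CPM with si-PTBP1, 102.2 CPM with si-hnRNPK and 148.2 CPM in the si-lncRNA-LBCS-labelled library. The lowest level was that of si-hnRNPK, at 63.7% of control, a difference of log2(CPM + 1) of -0.64 (-0.69 to -0.60). With si-PTBP1 the difference was 0.21 (0.17 to 0.25), and 0.09 after subtracting the median change of all genes.

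**Figure D1:**
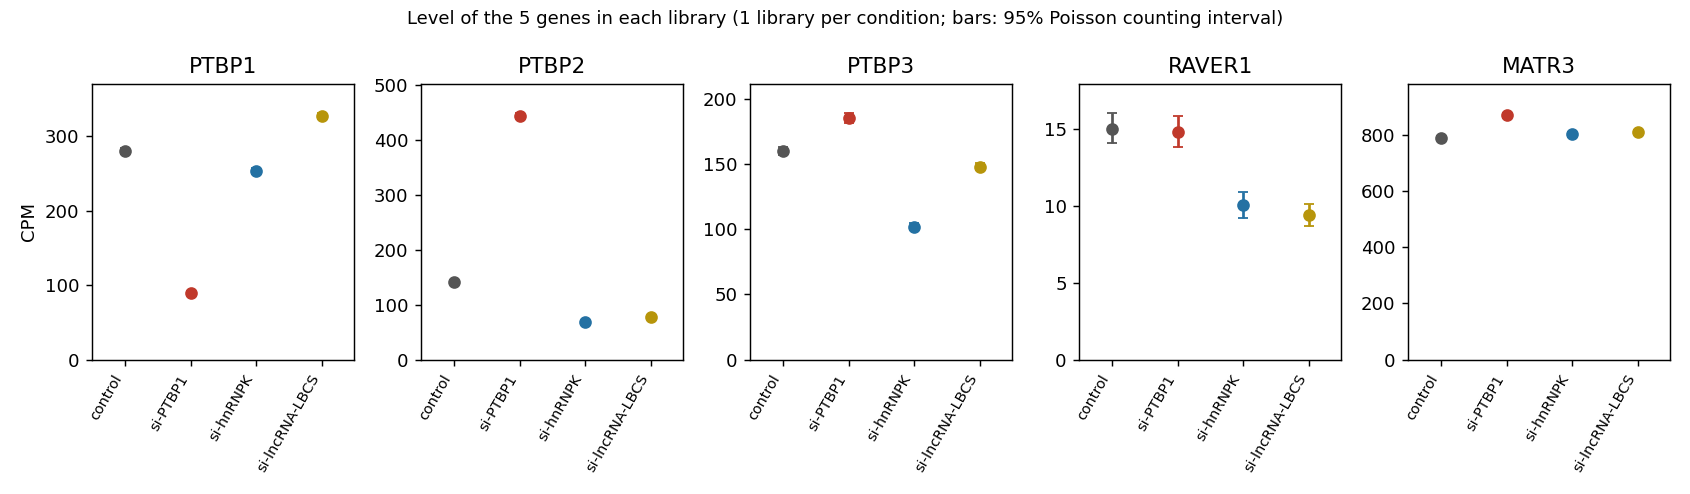
CPM of PTBP1, PTBP2, PTBP3, RAVER1 and MATR3 (y axes, linear and starting at 0, with their own range in each panel) in the 4 libraries (x axes). Points are single libraries and bars are 95% Poisson counting intervals. PTBP1 is lowest with si-PTBP1 (89.7 CPM), where PTBP2 is highest (443.0 CPM), and MATR3 stays between 790.8 and 870.9 CPM.

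RAVER1 was the lowest of the 5 genes. It was at 15.02 CPM with control siRNA, 14.8 CPM with si-PTBP1, 10.0 CPM with si-hnRNPK and 9.38 CPM in the si-lncRNA-LBCS-labelled library. Control and si-PTBP1 formed the upper level and the other libraries the lower one: within each pair the counting intervals of the ratio included 1, and si-PTBP1 was 1.48 times si-hnRNPK (1.32 to 1.65). Against control, the difference of log2(CPM + 1) was -0.02 (-0.15 to 0.11) with si-PTBP1, -0.54 (-0.68 to -0.40) with si-hnRNPK and -0.63 (-0.76 to -0.49) in the si-lncRNA-LBCS-labelled library. None of these reached the threshold. Another coding gene, AC011511.4, overlaps 4467 bases of RAVER1 on the same strand. It is not listed in the deposited values, and how reads of shared exons were counted is not given in the sources used here.

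MATR3 was the most abundant and the least variable member. It was at 790.8 CPM with control siRNA, 870.9 CPM with si-PTBP1, 803.0 CPM with si-hnRNPK and 811.0 CPM in the si-lncRNA-LBCS-labelled library. The highest library was 1.10 times the lowest. In si-PTBP1 the difference of log2(CPM + 1) was 0.14 (0.12 to 0.16), and 0.01 after subtracting the median of all genes. In si-hnRNPK it was 0.02, and in the si-lncRNA-LBCS-labelled library it was 0.04. The levels with si-hnRNPK and in the si-lncRNA-LBCS-labelled library did not differ beyond counting error (ratio 1.01, 0.997 to 1.02). A second gene also named MATR3 in the annotation, ENSG00000280987, covers 38024 bases of the same locus. It is not listed in the deposited values, and how reads of the shared stretch were counted is not given.

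Of the 5 genes, 1 was called higher and 1 lower in si-PTBP1, and the lower one, PTBP1, is the siRNA target. Over all genes measured in that comparison, 3.53% were called, 2.92% higher and 0.613% lower. In si-hnRNPK 1 of 5 was called, as lower, beside 7.48% of all genes, 3.55% higher and 3.93% lower. In the si-lncRNA-LBCS-labelled library 0 of 5 were called, beside 1.39% of all genes, 0.378% higher and 1.01% lower. The median difference over all genes was 0.12 in si-PTBP1, -0.11 in si-hnRNPK and -0.01 in the si-lncRNA-LBCS-labelled library. Relative to these medians, PTBP1 changed by -1.76 and PTBP2 by 1.52 in si-PTBP1, and PTBP2 by -0.93 in si-hnRNPK. The scaling also set the balance of directions: 404 genes were higher and 85 lower in si-PTBP1, and 256 and 132 with median-of-ratios scaling. In si-hnRNPK 486 were higher and 537 lower, and 610 and 374 with that scaling.

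**Figure D2:**
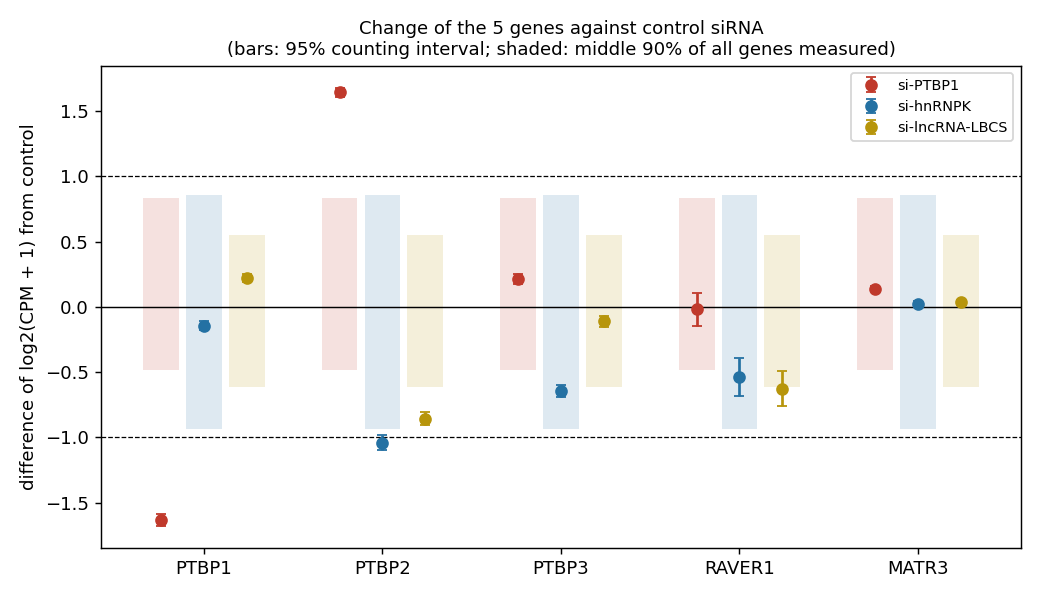
Difference of log2(CPM + 1) from control (y axis) for the 5 genes (x axis) in the si-PTBP1, si-hnRNPK and si-lncRNA-LBCS libraries. Points are single comparisons of 2 libraries, bars are 95% counting intervals, shaded bands hold the middle 90% of all genes measured and dashed lines mark the threshold of 1. PTBP1 (-1.63) and PTBP2 (1.64) in si-PTBP1 lie outside the bands on opposite sides, PTBP2 in si-hnRNPK (-1.04) and si-lncRNA-LBCS (-0.86) lies below them, and RAVER1 in si-lncRNA-LBCS (-0.63) lies at the lower edge.

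The depth was 54301152 to 70232674 reads on listed genes per library, and each member had at least 545 reads. The targeted gene HNRNPK was at 0.240 of its control level with si-hnRNPK, where the sample label gives a relative qPCR value of 0.08. The siRNAs against lncRNA-LBCS matched 1 gene, ENSG00000228412. It had 103 reads (1.47 CPM) in the si-lncRNA-LBCS-labelled library and 110 (1.79 CPM) with control siRNA, or 0.818 of the control level (0.619 to 1.08). With si-PTBP1 it was at 3.82 CPM and with si-hnRNPK at 3.43 CPM. Its lowest value was thus in the si-lncRNA-LBCS-labelled library, within counting error of control. The sample label gives a relative qPCR value of 0.13 for that culture, and the difference between the measures was not tested. Of 15 urothelial markers fixed as a list, 13 were listed and 2, KRT8 and KRT18, reached 10 CPM in any library. KRT8 ranged from 63.0 to 94.8 CPM and KRT18 from 75.2 to 121.4 CPM. The other 4 that reached 1 CPM were PPARG (2.33 to 5.19 CPM), KRT7 (1.42 to 3.03 CPM), FOXA1 (1.67 to 2.53 CPM) and TP63. The uroplakins UPK1B and UPK2, the luminal factor GATA3 and the basal keratin KRT5 were near 0, with 0.321 CPM or less in each library. PPARG had a difference of log2(CPM + 1) of 0.89 in si-PTBP1. TP63, a basal epithelial factor, was at 0.342 CPM in control, 2.37 in si-PTBP1, 2.504 in si-hnRNPK and 0.513 in si-lncRNA-LBCS. The summed urothelial markers ranged from 157.4 to 220.5 CPM. Of 10 markers of other cell types, 6 were listed and 0 reached 10 CPM, with sums from 4.61 to 10.9 CPM. Among them COL1A1, a fibroblast collagen gene, had 25 reads with control siRNA (0.407 CPM) and 126 with si-PTBP1 (2.25 CPM), and SNAP25, a neuronal gene, was at 7.82, 8.03, 4.22 and 4.04 CPM in the order control, si-PTBP1, si-hnRNPK and si-lncRNA-LBCS. The part of these cells or genes in the PTBP2 values was not tested. In bulk RNA, fewer cells with a transcript and less of it per cell cannot be told apart.

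To set the paralogs against each other, CPM was divided by the length of the merged annotated exons in kb. These exons cover 6883 bases for PTBP1, 12937 for PTBP2 and 8239 for PTBP3. With control siRNA the level was 40.7 CPM per kb for PTBP1, 19.5 for PTBP3 and 10.9 for PTBP2. PTBP1 thus led the family, with 57.3% of its summed level, and PTBP2 made up 15.4%. With si-PTBP1 the order was turned: PTBP2 was at 34.2 CPM per kb, PTBP3 at 22.5 and PTBP1 at 13.04. Per kb of the longest coding transcript PTBP2 also led in si-PTBP1, at 36.9, but PTBP1, at 24.3, was above PTBP3, at 23.2. Per kb of merged exons PTBP2 made up 49.1% of the family with si-PTBP1. On the same scale PTBP2 made up 9.68% with si-hnRNPK and 8.38% in the si-lncRNA-LBCS-labelled library, where PTBP1 made up 67.6% and 66.4%.

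The summed level of the 3 paralogs was 71.1 CPM per kb with control siRNA, 69.8 with si-PTBP1, 54.5 with si-hnRNPK and 71.4 in the si-lncRNA-LBCS-labelled library. The sum in si-PTBP1 was 0.983 of control on this scale. It was 0.784 of control per kb of the longest coding transcript and 1.26 per kb of the principal transcript, a length chosen after seeing the data, so its direction depended on the transcript length. The ratio does not depend on length when reads are compared between libraries: there were 0.504 PTBP2 reads per PTBP1 read with control siRNA, 4.94 with si-PTBP1, 0.269 with si-hnRNPK and 0.237 in the si-lncRNA-LBCS-labelled library. On the same merged length scale MATR3 was at 65.4 CPM per kb and RAVER1 at 3.02 with control siRNA.

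**Figure D3:**
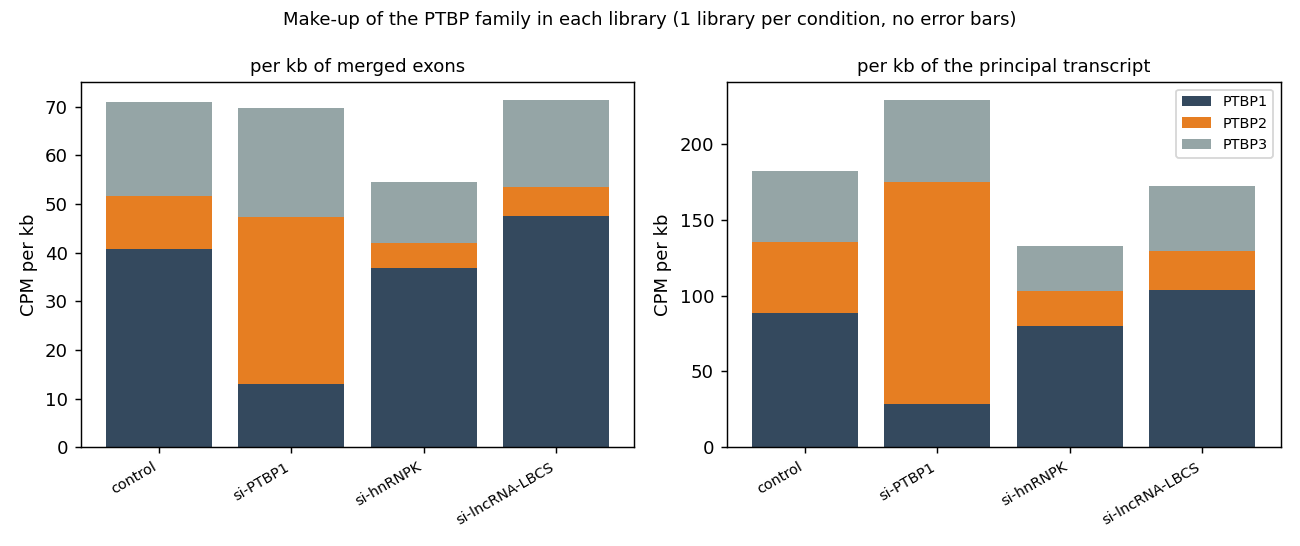
Stacked level of PTBP1, PTBP2 and PTBP3 (y axes, CPM per kb, linear from 0) in the 4 libraries (x axes), per kb of merged exons (left) and per kb of the principal transcript (right), with no error bars because each bar is 1 library. On the merged scale PTBP2 makes up 15.4% of the family with control siRNA and 49.1% with si-PTBP1, and on the principal scale 25.6% and 63.9%.

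Partners and antagonists of PTBP1 were described as a list of 16 RNA-binding and chromatin proteins, of which 15 were measured. In si-PTBP1 0 of them were called in either direction, beside 3.53% of all genes. The differences of log2(CPM + 1) ran from -0.26 to 0.41 with a median of 0.03, beside 0.12 over all genes. The 3 most abundant with control siRNA were NONO and SFPQ, nuclear partners in paraspeckles, and HNRNPA1, a splicing repressor. NONO was at 866.1 CPM in control and 781.4 CPM in si-PTBP1, SFPQ at 427.3 and 415.4 CPM, and HNRNPA1 at 395.7 and 338.2 CPM. HNRNPL, another hnRNP splicing regulator, was above HNRNPA1 in si-PTBP1, at 373.8 CPM, with a difference of 0.09. In si-hnRNPK 0 were called, beside 7.48% of all genes, and the median was -0.36, beside -0.11 over all genes. In the si-lncRNA-LBCS-labelled library 0 were called, beside 1.39% of all genes, and the median was -0.11, beside -0.01 over all genes. RAVER2, the paralog of RAVER1, was at 39.0 CPM in control and 36.9 CPM in si-PTBP1.

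Genes whose pre-mRNA holds an exon known to be regulated by PTBP1 formed a list of 21, of which 17 were measured. In si-PTBP1 1 was called higher and 0 lower, beside 2.92% and 0.613% of all genes, and the median was -0.00074, beside 0.12 over all genes. The called gene was TPM2, which encodes beta-tropomyosin, a classical PTBP1 splicing target. It was at 310.3 CPM with control siRNA, 643.7 CPM with si-PTBP1, 628.5 CPM with si-hnRNPK and 367.0 CPM in the si-lncRNA-LBCS-labelled library. Its difference of log2(CPM + 1) was 1.05 in si-PTBP1 and 1.02 in si-hnRNPK, and with median-of-ratios scaling 0 genes of the list were called higher in si-PTBP1. FLNA, an actin crosslinker, was at 3491 CPM in control and 3473 CPM in si-PTBP1. PKM, the pyruvate kinase gene whose alternative exons PTBP1 helps to choose, was at 2107 and 1845 CPM, and CTTN, which encodes cortactin, at 408.4 and 563.3 CPM. A change in exon choice that leaves the number of reads of a gene alike would not be seen in these values.

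In si-hnRNPK 2 of the 17 were called higher and 0 lower, with a median of 0.28, beside 3.55% called higher and a median of -0.11 over all genes. Against the geometric mean of the other 3 libraries 0 of them were called higher. Besides TPM2, the other was TPM1, the alpha-tropomyosin gene, at 334.8 CPM with control siRNA, 558.9 CPM with si-PTBP1, 843.4 CPM with si-hnRNPK and 426.5 CPM in the si-lncRNA-LBCS-labelled library. Its differences of log2(CPM + 1) were 0.74, 1.33 and 0.35. In the si-lncRNA-LBCS-labelled library 0 were called, beside 1.39% of all genes, with a median of -0.06. Another list held 7 genes whose mRNAs carry internal ribosome entry sites that PTBP1 is known to bind, and all 7 were measured. In si-PTBP1 0 were called, beside 3.53% of all genes, and the median was -0.08, beside 0.12 over all genes. Among the more abundant, HIF1A, the hypoxia factor gene, was at 287.8 CPM in control and 169.3 CPM in si-PTBP1, and MYC was at 210.3 and 165.9 CPM. Their differences of log2(CPM + 1) were -0.76 and -0.34, neither of them called. Of the 7 genes, 2 rose and 5 fell by any amount in si-PTBP1, and the highest difference was 0.71. In si-hnRNPK and in the si-lncRNA-LBCS-labelled library 0 of the 7 were called, beside 7.48% and 1.39% of all genes. The medians were -0.18 and -0.11.

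**Figure D4:**
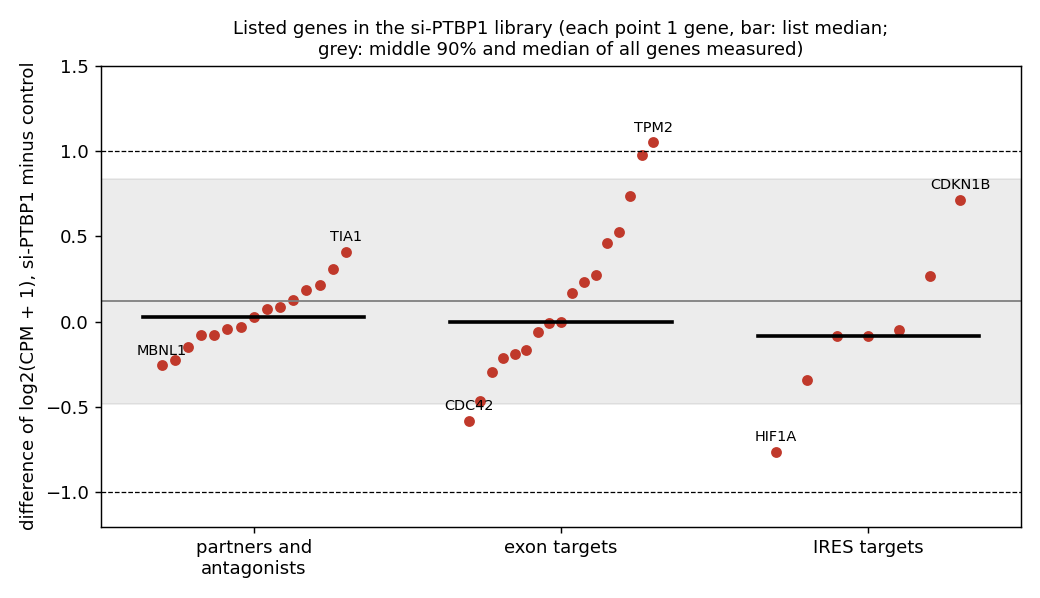
Difference of log2(CPM + 1) between si-PTBP1 and control (y axis) for each measured gene of the 3 lists (x axis), sorted within a list. Black bars are list medians, the grey band and line show the middle 90% and the median of all genes measured, dashed lines mark the threshold of 1, and the lowest and highest gene of each list are named. TPM2 (1.05) is the only listed gene past the threshold.

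The genes most like PTBP1 over the 3 differences from control were taken from 9451 others with a symbol and 10 CPM or more in their highest library. They were JDP2, a transcriptional repressor, PGAM1 and PGK1, both glycolytic enzymes, SMARCD2, a chromatin remodelling subunit, and LSM3, an RNA-binding splicing component. Their Euclidean distances to PTBP1 were 0.16 to 0.43 on the log2 scale. JDP2, the closest, was at 13.6 CPM with control siRNA, 3.73 CPM with si-PTBP1, 10.9 CPM with si-hnRNPK and 15.6 CPM in the si-lncRNA-LBCS-labelled library. PGK1, the most abundant, was at 1143 CPM in control and 438.1 CPM in si-PTBP1.

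For PTBP2 the closest genes were CACNA1G and CACNA1H, which encode T-type calcium channels, PPP1R12B, a myosin phosphatase subunit, SH3RF3, a scaffold protein, and GABBR1, a GABA-B receptor subunit that is also on the list of exon targets. Their distances were larger, 0.65 to 0.91. CACNA1G and CACNA1H reached 10 CPM only in si-PTBP1, at 14.2 and 16.3 CPM. They thus entered the candidates only through the library where PTBP2 was highest. GABBR1 was at 10.4 CPM with control siRNA, 21.4 CPM with si-PTBP1, 7.05 CPM with si-hnRNPK and 6.73 CPM in the si-lncRNA-LBCS-labelled library. Its difference in si-PTBP1, 0.98, was just under the threshold. Without the si-lncRNA-LBCS-labelled library, 2 of the 5 genes remained among the closest to PTBP1 (JDP2 and SMARCD2) and 2 of 5 among the closest to PTBP2 (CACNA1G and PPP1R12B). The likeness rests on 4 libraries and describes these libraries only.

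**Figure D5:**
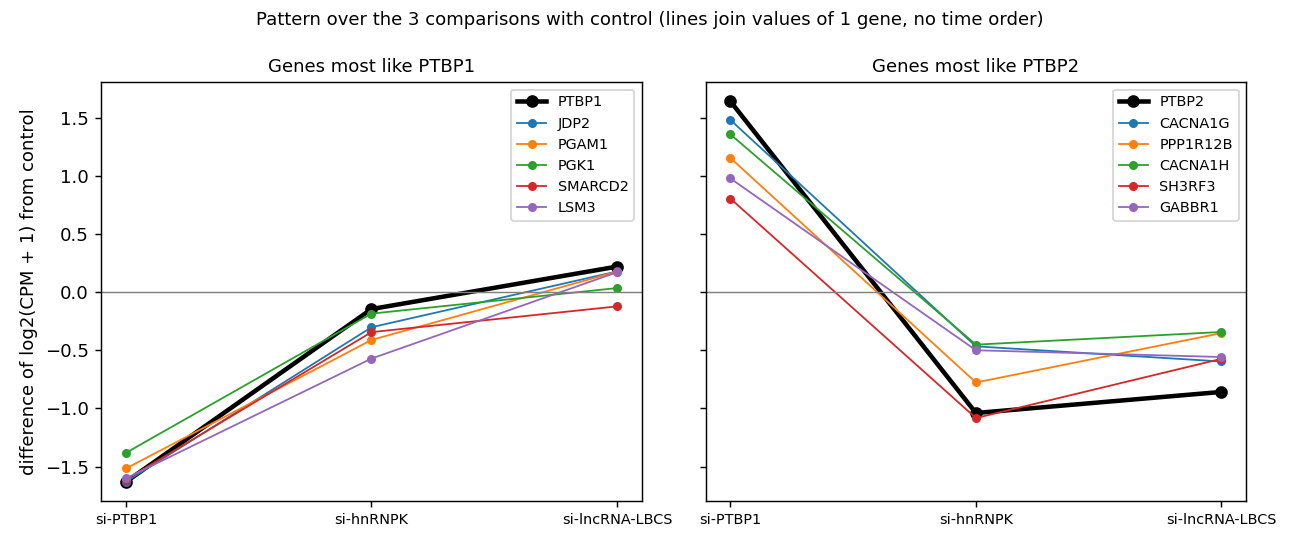
Differences of log2(CPM + 1) from control (y axis) in the si-PTBP1, si-hnRNPK and si-lncRNA-LBCS libraries (x axis) for PTBP1 with its 5 closest genes (left) and PTBP2 with its 5 closest genes (right). Each line joins the values of 1 gene and has no time order. The genes close to PTBP1 lie between -1.38 and -1.63 in si-PTBP1, and those close to PTBP2 lie between 0.81 and 1.48 there, under PTBP2 itself at 1.64.

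Matches to the siRNA seeds were counted in the longest annotated 3' UTR of each member. The 3' UTR of PTBP2, 10333 bases long, held 1 match to the seed of each PTBP1 siRNA, AAGTACA and CTGCACA, which occur in the 3' UTR of 11.3% and 13.6% of 19146 genes. It also held 2 matches to the seed of hnRNPK siRNA 2, which occurs in 17.6% of those genes, and 1 match to each seed of the lncRNA-LBCS siRNAs, which occur in 7.81% and 16.4%. These shares are over 3' UTRs of all lengths and are not matched to that of PTBP2, the longest among the members. A longer 3' UTR holds more matches by length alone. PTBP1 held no match to the PTBP1 or hnRNPK siRNA seeds and 1 to a lncRNA-LBCS seed, and RAVER1 held none to any siRNA. PTBP3 held 2 matches to the first PTBP1 seed, 1 to the first hnRNPK seed and 2 to the second lncRNA-LBCS seed. MATR3 held 1 match, to the second PTBP1 seed. No member matched the seed of the control siRNA. The part of these matches in the levels was not tested.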

How the data were processed

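Total RNA was sequenced as 100-base paired-end reads on a HiSeq 2500. The authors deposited 1 table of CPM per gene for each library. The submitters' processing notes name hg19. The aligner, counting method, annotation and filters are not given in the sources used here. The deposited CPM were whole multiples of 1 read, within 0.01 of a read, for 100% of genes with reads. Genes without reads carry a placeholder below 1 read, which was set to 0, and a gene enters a comparison where both tables list it. An exact binomial test of the recovered reads, which compares libraries and not conditions, called 10182 genes in si-PTBP1, 10872 in si-hnRNPK and 9479 in si-lncRNA-LBCS at a Benjamini-Hochberg q of 0.05. The main measure was the difference of log2(CPM + 1). The largest library total, from the step, was 70236103 reads, where 3 reads are 0.0427 CPM, and the smallest was 54305549, where they are 0.0552 CPM.

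Members and lists were chosen with earlier results of these data known. Text names the members, overlapping genes, siRNA targets, called and most abundant list genes, and the 5 nearest patterns to PTBP1 and PTBP2, and 1 gene that this rule names is not reported here. Positions, exons and sites are from GENCODE release 29 (GRCh38), matched by identifier. The alternatives were the geometric mean of the other libraries as reference, scaling by median of ratios, other pseudocounts, filters and thresholds, the binomial q and other transcript lengths. Biopython 1.88 aligned coding sequences, scipy 1.17.1 gave intervals, and pandas 2.3.3, numpy 2.4.6 and matplotlib 3.10.9 ran under Python 3.11.15. The steps were run on simulated Poisson counts with 4-fold changes in 200 of the more abundant genes and no spread between cultures. That run therefore cannot tell how reliable a call from 1 culture per condition is.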

Additional observations from a re-analysis of the deposited data

How the results depend on the processing

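In si-PTBP1, PTBP1 and PTBP2 kept their direction and stayed past the threshold under each scaling, reference and pseudocount run. With median-of-ratios scaling, si-PTBP1 gave -1.76 for PTBP1 and 1.52 for PTBP2, si-hnRNPK gave -0.93 for PTBP2, which ended that call, and si-PTBP1 had 256 genes higher, 132 lower and 0 exon targets higher. Against the geometric mean of the other 3 libraries, PTBP2 was at 2.28 in si-PTBP1 and -1.30 in si-hnRNPK, 234 genes were higher in si-PTBP1, 317 higher and 356 lower in si-hnRNPK, and 6 higher in the si-lncRNA-LBCS-labelled library. On that reference PTBP1 in si-hnRNPK (0.33), PTBP3 in the si-lncRNA-LBCS-labelled library (0.03) and RAVER1 in si-PTBP1 (0.37) changed sign, none of them called, as did MATR3 in si-hnRNPK (-0.04) and in the si-lncRNA-LBCS-labelled library (-0.02), and PTBP2 in that library was at -1.06, past the threshold. A pseudocount of 0.1 gave 793 higher and 173 lower in si-PTBP1, 790 and 995 in si-hnRNPK, 165 and 353 in the si-lncRNA-LBCS-labelled library, and 2 exon targets higher in si-PTBP1. A threshold of 1.5-fold gave 1673 and 432, 1352 and 2165, and 559 and 774 in the same order, with 3 exon targets higher and 1 internal ribosome entry site target higher and 1 lower in si-PTBP1. The percentage of PTBP2 in the family per kb of the longest coding transcript was 10.9 with control siRNA, 43.7 with si-PTBP1, 6.52 with si-hnRNPK and 5.68 in the si-lncRNA-LBCS-labelled library. Per kb of the principal transcript, chosen after seeing the data, it was 25.6, 63.9, 17.0 and 14.8. A change of pseudocount, threshold, length, scaling or reference alters these values by construction. For si-hnRNPK and the si-lncRNA-LBCS-labelled library, the geometric mean reference includes the si-PTBP1 library, where PTBP1 was lowest and PTBP2 highest. The cause of any other shift was not tested. Leaving out the filter, a filter of 5 CPM and the binomial q moved no count of called genes by over 1.5 times. No paired analysis was possible because each condition has 1 library. Depth limits RAVER1 most, with 545 to 922 reads.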

Other observations

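The coding genes next to each member on the chromosome, at 1 CPM or more in some library, were looked up after the members' values had been seen. Both neighbours of RAVER1, and PLPPR3, RWDD3 and SUSD1, are not described below, and none of their differences from control reached the threshold. DPYD, which encodes the enzyme that starts pyrimidine breakdown, is the next such gene after PTBP2, 254005 bases away, and was at 40.6 CPM with control siRNA, 55.9 CPM with si-PTBP1, 100.3 CPM with si-hnRNPK and 83.6 CPM in the si-lncRNA-LBCS-labelled library. DPYD was thus above control in the other 3 libraries, with differences of log2(CPM + 1) of 0.45, 1.29 and 1.03, while PTBP2 was above control in si-PTBP1 and below it in the others. PALM, which encodes the membrane protein paralemmin and lies before PTBP1, was at 6.53 CPM in control and 18.05 CPM in si-PTBP1, a difference of 1.34. It was also above control in si-hnRNPK (9.80 CPM, 0.52) and in the si-lncRNA-LBCS-labelled library (11.1 CPM, 0.68), where PTBP1 was not called. HSDL2, after PTBP3, was at 28.9 CPM in control and 53.8 CPM in si-PTBP1, a difference of 0.87, and its difference was 0.63 in each of the other libraries. SIL1 and PAIP2, on either side of MATR3, had differences of 0.44 and -0.36 in si-PTBP1.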
